A study of Bos taurus with 8 samples.

Results

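Genes of mismatch repair and of flap processing, MSH3, MSH6, PMS2, PMS1, MLH3, EXO1, FEN1 and LIG1, were followed through bovine embryos in which a ribosomal protein gene was edited with a prime editor. The members were listed by name for their part in the handling of prime editing products, with earlier results of these data known, and no value was used to select them. All 8 of the 8 listed were found among the 16606 genes of the deposited table, and all 8 reached the filter of a mean of at least 1 CPM (reads per 1000000 reads) over the 8 libraries, as did 12129 genes in all. Oocytes from abattoir ovaries had been matured and fertilised in vitro with semen of Holstein bulls. The edited embryos had been injected at the zygote stage, into the cytoplasm, with PEmax plus a guide RNA, to edit RPL12. PEmax is a Cas9 nickase joined to a reverse transcriptase. The edit is named A148G in the labels, with no origin of the numbering, and the titles call the samples base edited where the protocol speaks of prime editing. Control and edited embryos were taken when they had 4 cells and when they had 8 cells, which gives 4 groups with 2 libraries each, and every library was made from 5 embryos. Whether control embryos were injected, and what share of alleles carried the edit, is not given in the sources used here.

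Prime editing leaves the cell with an edited flap that competes with the displaced original strand. Flap removal and ligation fix one of them in place, and a mismatch is left between the edited and the unedited strand. Mismatch repair reads such mismatches and can return the site to its original sequence, so that these genes are known to set how often a prime edit survives. In this pathway MutS complexes recognise the mismatch, MutL complexes nick the strand to be corrected, an exonuclease removes it, and a polymerase and a ligase close the gap. Early embryos divide before their own genome is fully active, so their repair proteins and transcripts come largely from the egg.

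Between 33527531 and 35122409 reads were assigned to genes in each library. Each member had at least 122 reads in every library, the lowest being FEN1, and PMS2 had at least 130, so that counting error alone was at most 9.05% for 1 library. RPL12, the edited gene, stood at 159 and 174 CPM in 4-cell control libraries and at 27.5 and 33.6 CPM in 4-cell edited ones (log2 fold change -2.41, SE 0.25, adjusted p = 2.36e-06 by limma). A transcript level does not check the edit itself. Of 14 oocyte and early embryo markers all 14 were detected in every library, and their summed level moved with the groups. Their sum was 20020 and 26410 CPM in controls of the 4-cell stage and 49830 and 58090 CPM in edited libraries, and then 50650 and 38030 CPM against 53130 and 56510 CPM at the 8-cell stage. BTG4 made up most of it, at 12020 and 14930 CPM in 4-cell controls and 28840 and 37560 CPM in edited libraries. Of the 14 markers 6 were called higher and 1 lower at that stage. H1-8 was lower, at 768 and 751 CPM in 4-cell controls and 622 and 356 CPM in edited libraries. Cumulus and granulosa cell markers, of the somatic cells around the egg, were also present, and their summed level moved the other way. Of 19 such markers 17 to 19 were detected per library. Their summed level was 3994 and 7032 CPM in control libraries of the 4-cell stage and 1625 and 2291 CPM in edited ones. At the 8-cell stage it was 3512 and 3197 CPM in controls and 554 and 1156 CPM in edited libraries. LUM made up most of the 4-cell sums, at 2878 and 5965 CPM in controls and 1282 and 1897 CPM in edited libraries. At that stage 12 of 18 such markers tested were called lower and 2 higher. HAS2 rose, from 24.25 and 55.4 CPM in 4-cell controls to 132 and 124 CPM in edited libraries. TNFAIP6 had no read in the first edited library of either stage, and FOXL2 none in 4 libraries. In pooled embryos fewer cells of a type and less RNA per cell cannot be told apart.

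At the 4-cell stage 4 of the 8 genes rose in edited embryos and none fell. They were MLH3 and PMS1, which are MutL subunits, the exonuclease EXO1 and the ligase LIG1, with log2 fold changes from 0.81 to 1.37. MSH3, MSH6, PMS2 and FEN1 did not pass the test. Over all 12129 genes 18.9% were called higher, 25.8% lower and 44.7% in either direction at this stage, so that a share of 4 in 8 lies near the background for either direction. The 8 genes had a median log2 fold change of 0.71, against -0.02 over all genes tested. Without overlap between the libraries, 5 of the 8 lay higher and 1 lower in edited embryos, with 33.5% and 37.5% of all genes. Calls were made at an adjusted p-value under 0.05 by limma on log2(CPM + 1), and fold changes are on that scale.

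MSH3 and MSH6 are the MutS subunits that decide what is recognised, MSH6 mainly single mismatches and very small loops, MSH3 larger loops. MSH3 stood at 26.9 and 33.2 CPM in 4-cell control libraries and at 45.8 in both edited libraries. Both edited libraries lay above both controls, but the difference did not pass after adjustment (log2 fold change 0.60, 95% interval 0.04 to 1.17, adjusted p = 0.0784 by limma). edgeR on the recovered reads did call MSH3, with a log2 fold change of 0.73 and an adjusted p-value of 0.0464. MSH6 stood at 35.4 and 38.6 CPM in controls and at 46.3 and 33.2 CPM in edited libraries. The MSH6 values of the groups overlapped, and the log2 fold change was 0.08 with a 95% interval from -0.53 to 0.70 (adjusted p = 0.837 by limma).

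Among the MutL subunits, PMS2 carries the nicking activity of the main repair complex, MLH3 has such an activity and is known best for meiotic crossing over, and PMS1 has no known nuclease activity. MLH3 stood at 14.1 and 18.9 CPM in 4-cell controls and at 37.8 and 37.0 CPM in edited libraries. Its log2 fold change was 1.15 (SE 0.29, adjusted p = 0.00495 by limma). PMS1 stood at 77.2 and 82.2 CPM in controls and at 153 and 209 CPM in edited libraries. For both genes the edited libraries lay well above the controls. The log2 fold change of PMS1 was 1.16 (SE 0.23, adjusted p = 0.000759 by limma). PMS2 stood apart from the other MutL subunits, with 4.55 and 10.8 CPM in controls and 7.49 and 6.90 CPM in edited libraries. The edited PMS2 values lay between those of the controls, and the PMS2 controls of this stage differed from each other more than the 2 libraries of any other group did in PMS2. The 95% interval of the PMS2 log2 fold change, from -0.85 to 0.88, leaves room for a change in either direction (adjusted p = 0.980 by limma).

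EXO1, the exonuclease that removes the nicked strand, had the largest fold change of the 8 genes at this stage. It stood at 15.2 and 25.2 CPM in 4-cell controls and at 54.8 and 50.2 CPM in edited libraries (log2 fold change 1.37, SE 0.28, adjusted p = 0.00106 by limma). The groups were far apart although the controls differed from each other. FEN1, the flap endonuclease, stood at 7.47 and 7.74 CPM in controls and at 6.65 and 3.57 CPM in edited libraries. Both edited FEN1 values were below both controls, yet the test did not pass (log2 fold change -0.54, 95% interval -1.36 to 0.28, adjusted p = 0.272 by limma). The annotated span of FEN1 overlaps that of TMEM258, which stood at 31.05 to 117 CPM. The library kit does not mark strand, so reads from the shared stretch cannot be assigned to one of them. LIG1, the ligase that seals nicks in replicated and repaired DNA, stood at 105 and 97.2 CPM in controls and at 262 and 121 CPM in edited libraries. The LIG1 call rested on 1 edited library, since the second edited library lay close to the controls. LIG1 had a log2 fold change of 0.81 (SE 0.31, adjusted p = 0.0430 by limma). Without the first edited library it was 0.25 (adjusted p-value 0.544). LIG1 was also lost without the first control library (0.0748), without the second (0.0993), and with no filter on low values (0.113).

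**Figure D1:**
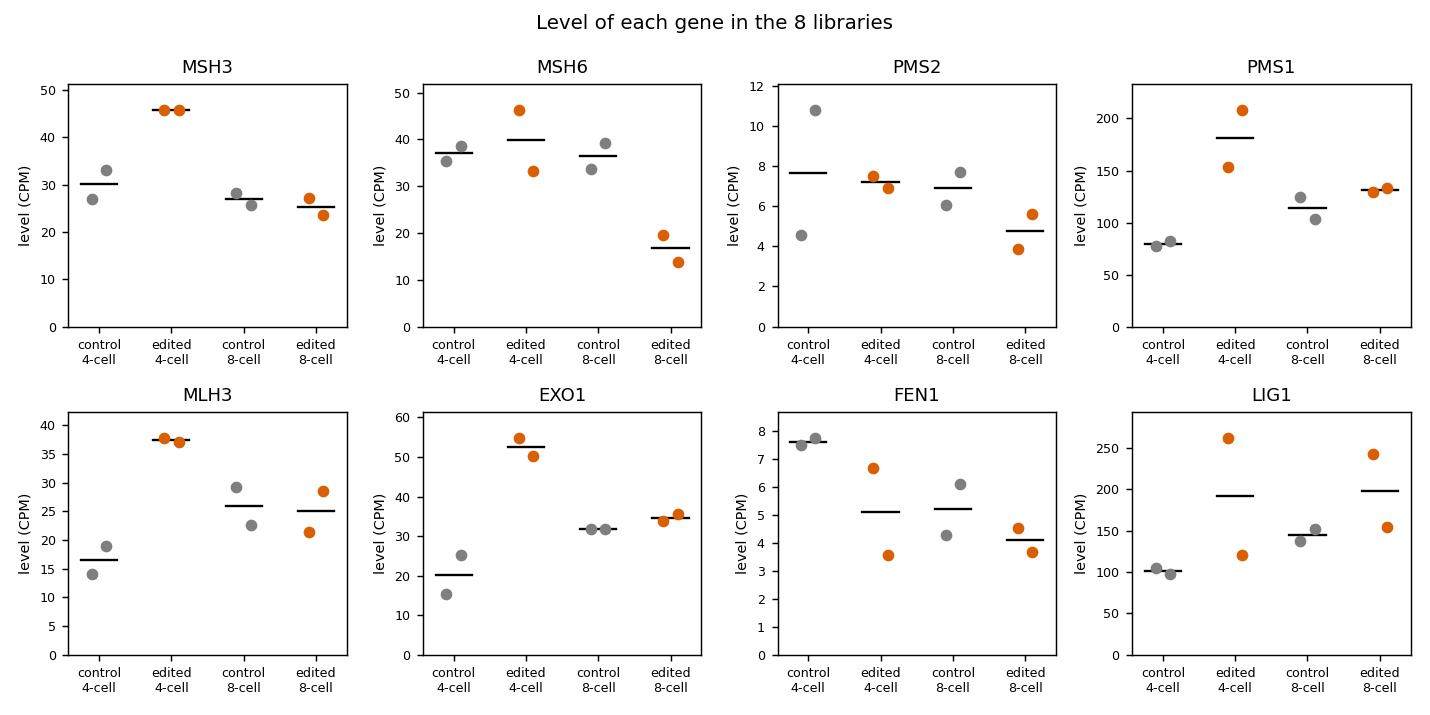
Level of each of the 8 genes in CPM (linear axes from 0) in control (grey) and edited (orange) libraries at the 2 stages, with 1 point per library and a line at the mean of 2. MSH3, PMS1, MLH3 and EXO1 have both 4-cell edited libraries above all other libraries, and MSH6 has both 8-cell edited libraries below all others.

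Oocyte and cumulus markers moved with the same comparison. Of the 14 oocyte and early embryo markers 6 were called higher and 1 lower at the 4-cell stage, in the direction of MLH3, PMS1 and EXO1, and 7 were called higher and none lower for the effect averaged over the stages. Their part in the result was not tested. Of 18 cumulus and granulosa cell markers tested 12 were called lower and 2 higher at the 4-cell stage. With the mean of these markers as a covariate none of the 8 genes was called. PMS1 and EXO1 then had log2 fold changes of 1.28 and 1.47 (adjusted p = 0.347 and 0.380 by limma), MLH3 one of 0.72 (0.723) and LIG1 one of 0.12 (0.965). Under this covariate 3 of all 12129 genes were called at the 4-cell stage, and the log2 fold change of RPL12 was -2.02 (adjusted p-value 0.188). The covariate itself was lower in every edited library (2.87 to 3.53 on the log2 scale) than in every control library (3.76 to 4.81). It thus largely coincided with editing, so the lost calls cannot separate the markers from editing.

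At the 8-cell stage 1 of the 8 genes changed. MSH6 fell in edited embryos, with a log2 fold change of -1.10, and the other 7 genes did not pass the test. Over all genes 14.5% were called lower and 1.08% higher at this stage, and 15.6% in either direction, so that 1 of 8 is close to the background. The 8 genes had a median log2 fold change of -0.07, with 0.005 over all genes tested. Without overlap, 3 of the 8 lay higher and 2 lower in edited embryos, with 27.7% and 32.7% of all genes.

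MSH6 stood at 33.7 and 39.3 CPM in 8-cell controls and at 19.6 and 13.7 CPM in edited libraries. The groups were clearly apart, with the mean of controls 2.19 times that of edited embryos (log2 fold change -1.10, SE 0.29, adjusted p = 0.0138 by limma). Without the second control library the MSH6 value was -0.995 on the log2 scale, with an adjusted p-value of 0.126, and without the second edited library -0.86, with one of 0.182. With the cumulus marker covariate MSH6 had a log2 fold change of -1.09 and an adjusted p-value of 0.786. Of those markers 4 of 18 were called lower and none higher at this stage. The annotated span of MSH6 overlaps over a long stretch with that of a long non-coding RNA gene that was not analysed here, and by a few bases with that of FBXO11. Without strand in the library kit, reads from the shared stretch cannot be assigned to MSH6 alone. MSH3, the other MutS subunit, stood at 28.2 and 25.7 CPM in controls and at 27.1 and 23.6 CPM in edited libraries. The MSH3 groups overlapped (log2 fold change -0.09, 95% interval -0.65 to 0.48, adjusted p = 0.868 by limma).

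Of the MutL subunits, PMS1 stood at 124 and 103 CPM in 8-cell controls and at 129.5 and 133 CPM in edited libraries, where the edited values were slightly higher. MLH3 stood at 29.3 and 22.6 CPM in controls and at 21.4 and 28.6 CPM in edited libraries, with overlap. The rise of both genes seen at the 4-cell stage was thus not found here, with log2 fold changes of 0.21 (95% interval -0.28 to 0.70, adjusted p = 0.5996 by limma) and -0.05 (95% interval -0.68 to 0.57, adjusted p = 0.930 by limma). PMS2 stood at 6.06 and 7.72 CPM in controls and at 3.88 and 5.60 CPM in edited libraries. Both edited PMS2 values were lower, by less than the test could call (log2 fold change -0.47, 95% interval -1.33 to 0.40, adjusted p = 0.506 by limma).

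EXO1 was nearly the same in all 8-cell libraries, at 31.9 and 31.7 CPM in controls and 33.8 and 35.5 CPM in edited embryos. Its log2 fold change of 0.12 had a 95% interval from -0.48 to 0.72 (adjusted p = 0.825 by limma). FEN1 stood at 4.29 and 6.09 CPM in controls and at 4.54 and 3.65 CPM in edited libraries, with overlap (log2 fold change -0.27, 95% interval -1.09 to 0.55, adjusted p = 0.699 by limma). LIG1 stood at 137 and 152 CPM in controls and at 243 and 154 CPM in edited libraries. As at the 4-cell stage, the first edited library was high in LIG1 and the second was close to the controls (log2 fold change 0.42, 95% interval -0.24 to 1.08, adjusted p = 0.424 by limma).

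**Figure D2:**
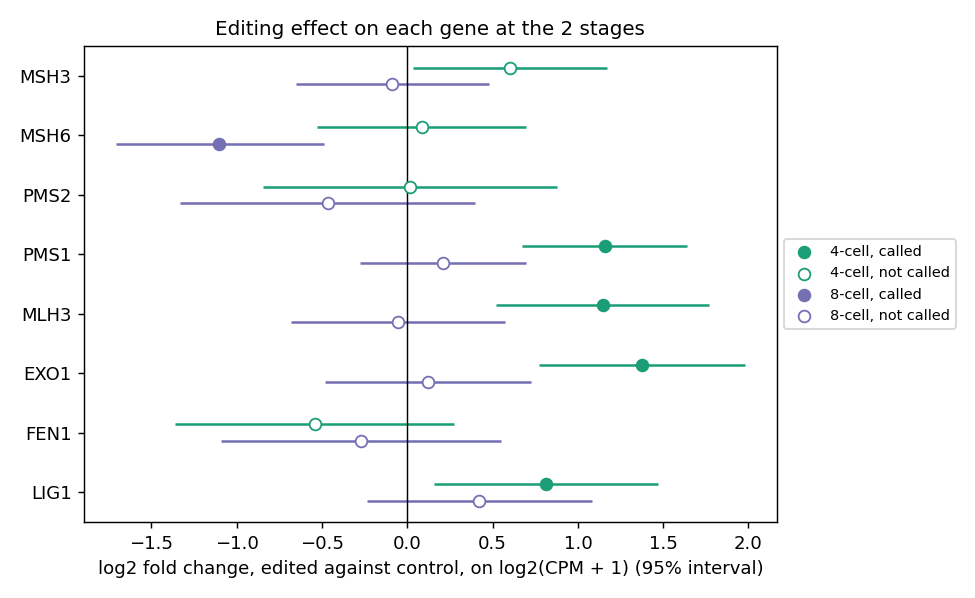
Log2 fold change of edited against control embryos for each gene, on the log2(CPM + 1) scale, at the 4-cell (green) and 8-cell stage (violet), with 95% intervals from limma and filled points for genes called at an adjusted p-value under 0.05. PMS1, MLH3, EXO1 and LIG1 are called at the 4-cell stage and MSH6 at the 8-cell stage.

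Whether editing acted differently at the 2 stages was tested as the 8-cell effect minus the 4-cell effect. By limma none of the 8 genes passed, where 3.96% of all genes did, 1.95% with a positive and 2% with a negative difference. At an unadjusted p-value under 0.05 there were 4 of 8 members, with 23.1% of all genes. These were EXO1 with a difference of -1.25 (SE 0.40, adjusted p = 0.0833 by limma), MLH3 with -1.20 (SE 0.42, 0.103), MSH6 with -1.19 (SE 0.41, 0.100) and PMS1 with -0.94 (SE 0.32, 0.0997). FEN1 alone had a positive difference, of 0.27 (95% interval -0.88 to 1.43). edgeR on the recovered reads called 0 of the 8, and DESeq2 called MSH6 (-1.21, adjusted p-value 0.0388) and EXO1 (-1.24, adjusted p-value 0.0455). Without the second 4-cell control library limma called EXO1 too (-1.60, adjusted p-value 0.0170). A p-value that misses the threshold does not show that the stages responded alike.

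Averaged over the stages, 4 genes were called, all higher. Of all genes 44.8% were called in this comparison, 17.6% higher and 27.2% lower. EXO1 had an averaged log2 fold change of 0.75 (SE 0.20, adjusted p = 0.00668 by limma), PMS1 0.68 (SE 0.16, 0.00281), LIG1 0.61 (SE 0.22, 0.0311) and MLH3 0.55 (SE 0.21, 0.0429). The averaged call of MLH3 was lost without the first 4-cell control library (adjusted p-value 0.124), without either 4-cell edited library (0.0846 and 0.0714), without the second 8-cell control (0.155) and without the second 8-cell edited library (0.174). That of LIG1 was lost without the first library of the 4-cell edited (0.190), 8-cell control (0.0659) or 8-cell edited group (0.155). With no filter on low values the averaged calls of LIG1 and MLH3 were lost too (adjusted p = 0.0904 and 0.0538 by limma). MSH6 had an averaged log2 fold change of -0.51 and did not pass (adjusted p = 0.0528 by limma). It was called by DESeq2 (0.0477) and by limma with a filter of at least 5 CPM (0.0475). Limma also called MSH6 with a replicate block of crossed 8-cell control numbers, chosen after seeing the data (0.0358). Without the first 4-cell edited or first 8-cell edited library the MSH6 value was -0.627 or -0.631.

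The stages were then compared within each condition. The 4-cell control libraries serve here and in the comparison with 4-cell edited embryos, and the edited libraries serve in both kinds of comparison too, so these results are not independent. In control embryos none of the 8 genes was called between the stages by limma, by edgeR or by DESeq2, where limma called 9.02% of all genes, 2.75% higher and 6.27% lower. Higher calls were 30.5% of these calls, and 17.4% with median-of-ratios scaling. At an unadjusted p-value under 0.05 there were 3 of 8 members, with 29.4% of all genes. Without overlap, 4 of the 8 lay higher at the 8-cell stage and 1 lower, with 28.4% and 30.8% of all genes. EXO1, MLH3 and PMS1 were among those higher, by 0.67 (SE 0.28, adjusted p = 0.131 by limma), 0.63 (SE 0.29, 0.169) and 0.50 (SE 0.23, 0.157) on the log2 scale. Without the second 4-cell control library EXO1 was called (1.01, adjusted p-value 0.0317). MSH6 was level in controls, with a log2 fold change of -0.02 (95% interval -0.63 to 0.59).

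In edited embryos MSH6 fell from the 4-cell to the 8-cell stage, from 46.3 and 33.2 CPM to 19.6 and 13.7 CPM, with no overlap. The log2 fold change was -1.21 (SE 0.29, adjusted p = 0.0277 by limma), and limma called 5.18% of all genes in this comparison, 1.45% higher and 3.73% lower. Without overlap, 6 of the 8 lay lower and none higher at the 8-cell stage in edited embryos, with 30.2% and 22.7% of all genes. The MSH6 call was lost without either 4-cell edited library (adjusted p-values 0.115 and 0.155), without either 8-cell edited library (0.0757 and 0.226), with the marker covariate (0.0799) and with no filter on low values (0.0785), at log2 fold changes of -0.96 to -1.45. MSH3 also lay lower at the 8-cell stage in edited embryos, going from 45.8 CPM in both libraries to 27.1 and 23.6 CPM (log2 fold change -0.83, SE 0.27, adjusted p = 0.0816 by limma). DESeq2 called MSH3 in this comparison (-0.91, adjusted p-value 0.0218). The other 6 genes had log2 fold changes from -0.59, in EXO1, to 0.12, in LIG1, and were not called.

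The order of the group means differed between the genes. PMS1 and EXO1 had the same order, with 4-cell edited highest, then 8-cell edited, 8-cell control and 4-cell control, and no neighbours in that order overlapped. MLH3 had 4-cell edited highest and 4-cell control lowest too, with the 2 groups of the 8-cell stage overlapping between them. MSH3 was highest in 4-cell edited embryos, and the other 3 groups did not separate from their neighbours. In MSH6 only the 8-cell edited group stood apart, below the rest. PMS2 had its lowest mean in 8-cell edited embryos, separate from its neighbour, 8-cell control. It was not separate from 4-cell control, where the first library had 4.55 CPM. No other neighbours separated in PMS2. FEN1 was highest in 4-cell control embryos and LIG1 lowest there, and the other groups of both genes overlapped with their neighbours.

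Ratios between genes of the same step, taken within a library, do not depend on library scaling, and their change between groups does not depend on gene length. They were not tested and are given as a description. The ratio of MSH6 to MSH3 was 1.32 and 1.16 in controls of the 4-cell stage and 1.20 and 1.53 in those of the 8-cell stage. In edited embryos it was 1.01 and 0.724, and then 0.724 and 0.582. All 4 edited libraries thus lay below all 4 controls. In the 4-cell stage both MSH3 values were above the controls, and in the 8-cell stage both MSH6 values were below them. The ratio of PMS2 to MLH3 lay between 0.182 and 0.198 in the 4 edited libraries and between 0.207 and 0.573 in the 4 controls. The ratio of FEN1 to LIG1 was 0.0712 and 0.0796 in controls of the 4-cell stage and 0.0313 and 0.0401 in those of the 8-cell stage. In edited embryos it was 0.0254 and 0.0296, and then 0.0187 and 0.0237. It too was lower in every edited library than in every control. Of 6 ratios computed, MLH3 to PMS1 did not separate in this way, with 0.183 and 0.230 in controls against 0.247 and 0.177 in edited libraries of the 4-cell stage. FEN1 to EXO1 and PMS2 to PMS1 were near ties. The highest edited and lowest control values were 0.1343 and 0.1346 for FEN1 to EXO1, and 0.04887 and 0.04888 for PMS2 to PMS1. The gap was small for PMS2 to MLH3 too (0.198 against 0.207). How often pairs of other genes separate like this was not computed, so nothing particular to these pairs is shown.

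**Figure D3:**
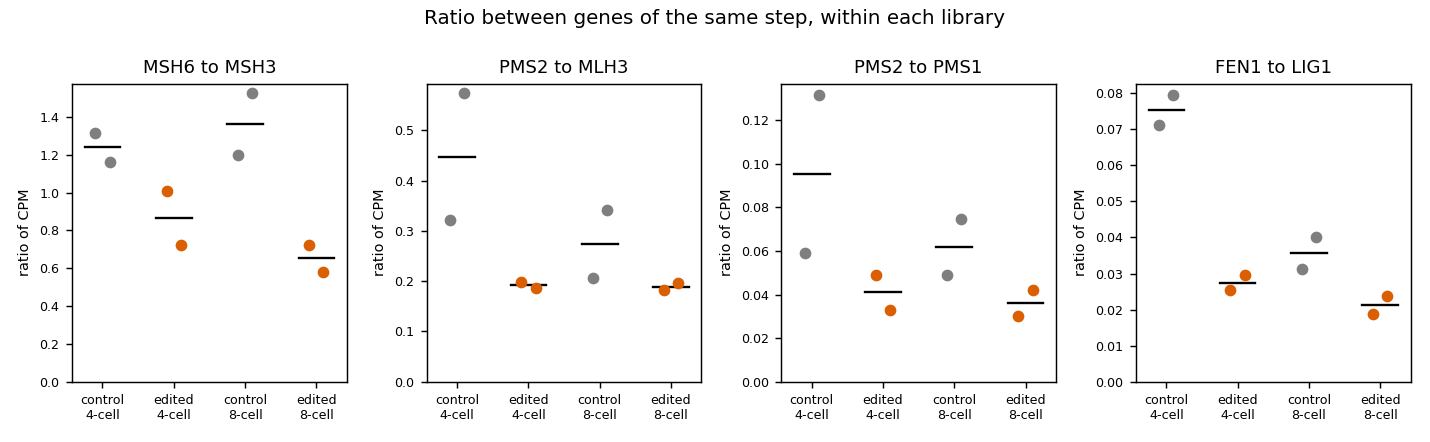
Ratio of the CPM of a pair of genes within each library (linear axes from 0), for control (grey) and edited (orange) embryos at the 2 stages, with a line at the mean of 2 libraries. MSH6 to MSH3 and FEN1 to LIG1 lie lower in all 4 edited libraries than in all 4 controls, and so do the ratios of PMS2 to MLH3.

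The proteins that work with these genes were described from lists of replication and repair genes. Over 5 of these lists and 2 short ones, 70 genes were tested of 73 listed. At the 4-cell stage 18 of the 70 were called higher and 14 lower, and their median difference was 0.09 on the log2 scale. In embryos of 8 cells 1 was called higher and 5 were called lower, with a median of -0.001. These shares, of 45.7% and 8.57% called, compare with 44.7% and 15.6% of all genes.

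The sliding clamp PCNA holds polymerase, FEN1 and LIG1 on DNA, the RFC complex loads it, and RPA covers single strands. Of these 9 genes 2 were called higher and 1 lower at the 4-cell stage. RFC1, the large loader subunit, stood at 54.7 and 111 CPM in controls and at 241 and 226 CPM in edited libraries (log2 fold change 1.57, SE 0.28, adjusted p = 0.000341 by limma). PCNA stood at 363 and 541 CPM against 892 and 679 CPM (0.81, adjusted p-value 0.0290 by limma). RFC2, a small loader subunit, went the other way, from 42.4 and 47.7 CPM in controls to 18.5 and 13.9 CPM in edited libraries (-1.43, adjusted p-value 0.000631 by limma). At the 8-cell stage RPA3 alone was called in this list, at 81.9 and 103 CPM in controls against 46.3 and 52.1 CPM in edited libraries (-0.89, adjusted p = 0.0167 by limma).

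Of 12 replicative polymerase and primase genes 3 were called higher and 3 lower at the 4-cell stage. POLE2 stood at 136 and 165 CPM in controls and at 384 and 418 CPM in edited libraries (log2 fold change 1.42, adjusted p = 0.000114 by limma). The accessory subunits of polymerase delta did not move together. POLD4 stood at 21.1 and 18.2 CPM against 3.53 and 1.02 CPM (-2.77, adjusted p = 0.000778 by limma), and POLD2 at 10.9 and 9.50 CPM against 2.57 and 1.84 CPM (-1.81, adjusted p = 0.00133 by limma), while POLD3 had a log2 fold change of 0.51 and was not called (adjusted p = 0.0595 by limma). At the 8-cell stage PRIM2, of primase, was the 1 gene called, at 143 and 139 CPM in controls and 244 and 248 CPM in edited libraries (0.80, adjusted p = 0.0153 by limma).

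Of 15 other genes that process nicks, flaps and RNA-DNA hybrids 3 were called higher and 5 lower at the 4-cell stage, and 3 lower at the 8-cell stage. TREX1, an exonuclease that degrades DNA ends and flaps, had the largest change. It stood at 73.8 and 41.8 CPM in 4-cell controls and at 4.83 and 4.53 CPM in edited libraries (log2 fold change -3.32, SE 0.45, adjusted p = 2.88e-05 by limma), and at 12.8 and 39.5 CPM against 4.24 and 2.85 CPM at the 8-cell stage (-2.40, adjusted p = 0.00110 by limma). TREX1 was therefore low in all 4 edited libraries. RNASEH1, which removes RNA from hybrids, fell at the 4-cell stage (-2.05, adjusted p = 9.58e-05 by limma), and RNASEH2C fell at both stages (-2.001 and -1.48, adjusted p = 0.000336 and 0.00818 by limma). RNASEH2B also fell at both stages. In embryos of 4 cells RNASEH2B had a log2 fold change of -1.66 (adjusted p = 0.001065 by limma). In embryos of 8 cells its level was 15.8 and 13.3 CPM in controls and 1.97 and 3.29 CPM in edited libraries (-2.12, adjusted p = 0.000352 by limma).

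SSB encodes the La protein, which binds the tails of short RNAs and is known to favour prime editing. It stood at 273 and 226 CPM in 4-cell controls and at 495 and 664 CPM in edited libraries (log2 fold change 1.21, SE 0.22, adjusted p = 0.000359 by limma). SSB was not called at the 8-cell stage (-0.43, 95% interval -0.89 to 0.03), and its effects at the stages differed (difference -1.64, SE 0.31, adjusted p = 0.0206 by limma). SAMHD1, which lowers nucleotide supply, was not called at either stage (0.67 at both, adjusted p = 0.169 and 0.285 by limma). MSH5, a meiotic relative of MSH3 and MSH6, was called higher at the 4-cell stage, at 15.04 and 15.3 CPM in controls and 28.8 and 24.9 CPM in edited libraries (0.78, adjusted p = 0.0343 by limma), and its partner MSH4 was not (0.99, adjusted p = 0.0590 by limma).

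Other repair pathways were set beside these. Of 13 base excision repair genes tested 2 were called higher and 4 lower at the 4-cell stage. APEX1, the main endonuclease of that pathway, stood at 325 and 367 CPM in controls and at 131 and 121 CPM in edited libraries (log2 fold change -1.45, adjusted p = 6.35e-05 by limma), and APEX2 fell too (-1.70, adjusted p = 0.000431 by limma), while the glycosylase UNG rose (0.88, adjusted p = 0.00666 by limma). TDG alone was called at the 8-cell stage, at 11.3 and 10.1 CPM against 1.70 and 1.62 CPM (-2.13, adjusted p = 0.00186 by limma). Of 17 double-strand break repair genes tested 6 were called higher and 1 lower at the 4-cell stage, and none in either direction at the 8-cell stage. RAD50 and MRE11, of the complex that senses broken ends, had log2 fold changes of 1.44 each (adjusted p = 0.000140 and 0.00104 by limma), and XRCC4, a partner in end joining, one of 1.23 (0.000759).

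**Figure D4:**
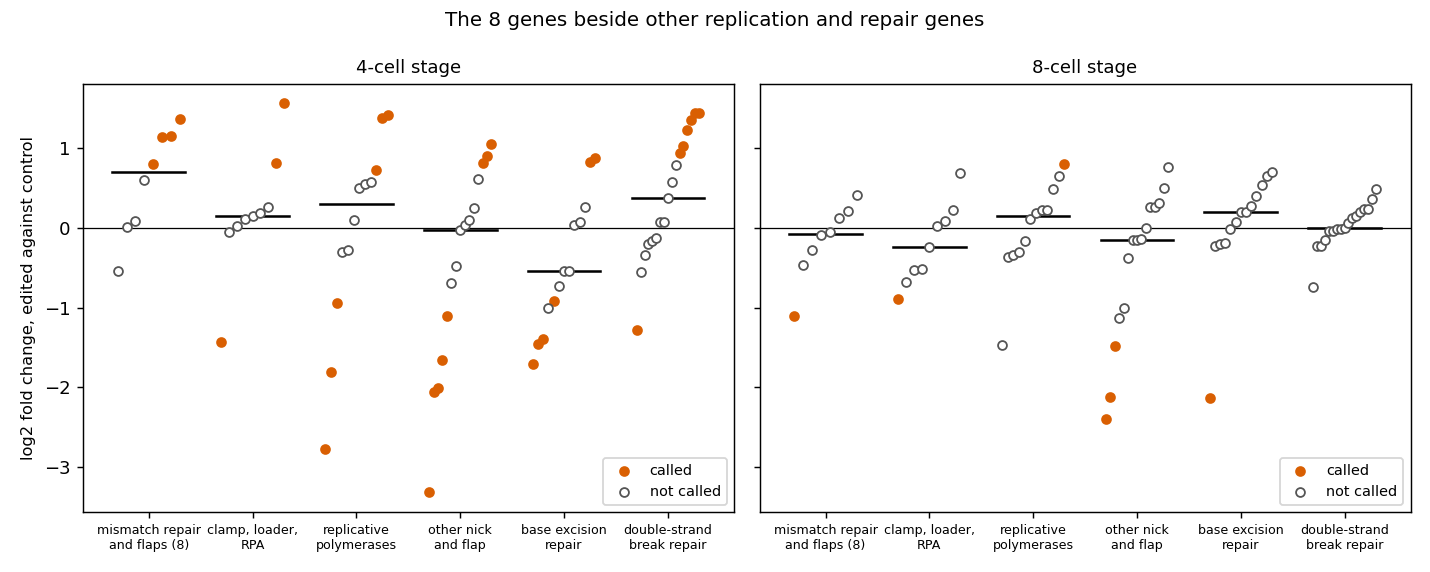
Log2 fold change of edited against control embryos for the 8 genes and for 5 lists of replication and repair genes at the 4-cell (left) and 8-cell stage (right), with 1 point per gene tested, filled where called by limma, and a line at the median of each list. At the 4-cell stage the 8 genes have a median of 0.71 with none called lower, where 25.8% of all genes were called lower. The 5 lists shown hold called genes in both directions, with 1 called lower in double-strand break repair. MSH4 and MSH5, not shown, have a median of 0.88 with none called lower.

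Over the 8 libraries MLH3, PMS1 and EXO1 varied together, with a Pearson r on log2(CPM + 1) of 0.902 for MLH3 and PMS1, 0.945 for MLH3 and EXO1 and 0.896 for PMS1 and EXO1. The libraries fall into the 4 groups, so these values describe mainly the group means. MSH3 and MSH6 had an r of 0.558, FEN1 and LIG1 one of -0.182, and PMS1 and FEN1 the lowest, -0.746. Among 7435 genes that averaged 10 CPM or more, the pattern most like that of MLH3 was XRCC4 (r 0.994) and then EEA1 (0.992). The pattern most like that of EXO1 was SMARCA5 (0.994) and then SLC12A2 (0.990), and for PMS1 it was FSD1L (0.994). For MSH3 it was ALDH1A1 (0.976) and USO1 (0.950), and for MSH6 MGA (0.959) and VBP1 (0.950). FEN1 was most like RASAL2 (0.972) and PARP11 (0.970), and PMS2 most like ATP6V1A (0.976) and GARS1 (0.922). Each of these was picked for the highest r among all the genes compared, over 8 libraries in 4 groups. How high the top r lies for other genes was not computed, so no link to a member is shown.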

How the data were processed

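RNA was measured in 8 libraries, 2 for each of 4 groups, made from amplified cDNA of pooled embryos per the labels' protocols. The values the authors deposited are CPM, not raw read counts: they are not whole numbers and sum to about 1000000 per column. The sums ran from 992528 to 1007024. Since some exceed 1000000, the columns carry a further scaling, whose kind was not examined. Per column, 100% of the values above 0 came out as multiples of 1 step (tolerance 0.05 reads), so whole reads per gene could be recovered. The submitters' processing notes name Trim Galore 0.6.7, HISAT2 2.2.1 and featureCounts 2.0.1. Genome build, annotation and filters are not given in the sources used here. Another 4 of 12 columns match no sample here and were not used.

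Tests used limma 3.58.1 in R 4.3.3 (trend option on) on log2(CPM + 1), with 1 mean per group over all 8 libraries, for the 12129 genes that averaged 1 CPM or more, with Benjamini-Hochberg adjustment over all of them and calls at an adjusted p-value under 0.05. The scripts were tested on simulated data. Intervals of 95% are limma's and unadjusted. Alternatives were other pseudocounts and filters, median-of-ratios scaling, edgeR 4.0.16 and DESeq2 1.42.0 on recovered reads, only the libraries compared, a replicate block, a covariate of cumulus markers and leaving out each library. Members and lists were chosen with earlier results of these data known. All 8 members and RPL12 are named, with up to 3 called genes per list and stage by smallest p-value, and for each member the genes with the highest r, which for LIG1 are not reported here. Overlapping genes were read from the RefSeq gene table of assembly ARS-UCD2.0, whose build may differ from that of the files. P-values measure the spread between libraries that the labels call replicates, each of a pool. Reads from amplified cDNA are not independent molecules, so counting errors cover counting only.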

Additional observations from a re-analysis of the deposited data

How the results depend on the processing

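Of the counts of members called, 93 stayed within 1.5 times under an alternative and 16 did not. Only the number called was compared, not which genes or directions, and counts that were 0 and stayed 0 are among the 93. Of the single-gene values, 902 kept their direction and their side of the threshold, 40 lost a call, 14 gained one and 25 changed sign. The cause was not tested for any of them. With the cumulus marker covariate 0 members were called in each of the 6 comparisons. With no filter on low values 2 members were called for the averaged effect, against 4, and 0 between stages in edited embryos, against 1. DESeq2 called 2 members for the difference between stages, against 0, and 2 between stages in edited embryos. Without 1 library each, 3 to 4 members were called at the 4-cell stage and for the averaged effect, and 0 to 1 at the 8-cell stage, for the difference and between stages in either condition.

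The log2 values that changed sign were not called. For PMS2 at the 4-cell stage the value was -0.0114 with a pseudocount of 5 and -0.0591 by DESeq2. With the marker covariate LIG1 had -0.123 at the 8-cell stage and -0.0134 between stages in edited embryos, and PMS2 had 0.219 for the averaged effect and 0.155 between stages in controls. edgeR gave 0.0121 for MSH6 between stages in controls. Without 1 library each, the 4-cell effect ran from -0.151 to 0.319 for MSH6 and from -0.529 to 0.562 for PMS2. The 8-cell effect ran from -0.184 to 0.00951 for MSH3 and from -0.257 to 0.147 for MLH3. The averaged effect of PMS2 ran from -0.498 to 0.0477. The difference between stages ran from -1.03 to 0.0623 for PMS2, from -0.101 to 0.644 for FEN1 and from -0.948 to 0.166 for LIG1. Between stages in controls, MSH3 ran from -0.291 to 0.00167, MSH6 from -0.128 to 0.0874 and PMS2 from -0.591 to 0.5. Between stages in edited embryos, FEN1 ran from -0.591 to 0.153 and LIG1 from -0.437 to 0.678.

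Same-numbered libraries had correlations of their deviations of 0.108 at the 4-cell stage, -0.0863 at the 8-cell stage, -0.302 between controls and 0.0234 between edited groups, so the numbers were not taken to pair samples. With the replicate block 4, 1, 3, 0, 0 and 1 members were called for the 4-cell, 8-cell and averaged effects, the difference, and the stages in control and in edited embryos, and MLH3 lost its averaged call (adjusted p-value 0.0582). Crossing the 8-cell control numbers in the block, an alternative chosen after seeing the data, called 5 members for the averaged effect, 0 for the difference and 0 between stages in controls, and 5767, 864 and 1690 of all genes.

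Of all genes 5419, 1895, 5437, 480, 1094 and 628 were called in the 6 comparisons in that order, and 3, 14, 4, 83, 13 and 194 with the marker covariate. Without the second 8-cell control library 1021 were called at the 8-cell stage. For the difference 0 were called with no filter, 18 by edgeR, 1065 by DESeq2 and 0 to 1396 without 1 library. Between stages in controls there were 1 with no filter, 86 by edgeR, 161 with only the libraries compared and 13 to 2114 without 1 library. Between stages in edited embryos there were 17, 324, 1149 and 7 to 966 in the same order, and 1286 by DESeq2. A fit of only the libraries compared gives nothing further for the averaged effect and the difference, which use all 8. With 1 library left in a group, its spread is assumed to equal that of the other groups.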
